A study of Caenorhabditis elegans with 2 samples.

Results

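The genes of the 26S proteasome were followed in a chromatin immunoprecipitation and sequencing (ChIP-seq) experiment on SWSN-7, which belongs to the PBAF form of the SWI/SNF complex, an ATP-dependent remodeller of nucleosomes, in larvae of the nematode Caenorhabditis elegans. Members were the protein-coding genes whose symbol starts with pas-, pbs-, rpn- or rpt-, which gave 33 of the 19973 protein-coding genes annotated on the 6 nuclear chromosomes. They were divided into the core alpha ring (7 genes), the core beta ring (7 genes), the base of the regulatory particle (10 genes) and its lid (9 genes). The rule itself reads the symbols only.

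The experiment had 1 group of 2 biological replicates and no compared condition. Both were whole hermaphrodite L1 larvae of strain OP512, taken 6 hours after synchronization by starvation of hatched larvae. OP512 carries the allele unc-119(tm4063) on chromosome III and the transgene wgIs512, from which SWSN-7 is made with GFP and FLAG fused to its C terminus. Sonicated chromatin was precipitated through the tag with an antibody against GFP, so the values describe the tagged protein. The labels point to a separate control experiment, which was not analysed here. Whole animals were used, so a region bound in few cells and a region bound weakly in many cells cannot be told apart. Read depth is unknown, and 2 replicates of 1 group allow no test. The values below are therefore given as descriptions.

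The 26S proteasome degrades proteins that have been tagged with ubiquitin. Its core is a barrel of alpha and beta rings: the alpha rings form the gated entrance, and the beta rings carry the proteolytic sites inside. The regulatory particle caps the barrel, with a base of ATPases that unfold and feed in substrates, and a lid that removes the ubiquitin chains. Subunit genes are expressed in most tissues, and in C. elegans the transcription factor SKN-1 is known to raise their expression when the proteasome is impaired.

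An SWSN-7 region lay at the promoter of 24 of the 33 subunit genes (72.7%), against 3179 of all 19973 protein-coding genes (15.9%). A gene was counted when the summit of a region in the list that passed the authors' irreproducible discovery rate (IDR) threshold fell between 1000 bp upstream and 500 bp downstream of one of its annotated 5′ ends. The lid had such an entry at 8 of 9 genes (88.9%), the core beta ring at 5 of 7 (71.4%), the base at 7 of 10 (70.0%) and the core alpha ring at 4 of 7 (57.1%). With 7 to 10 genes each, 1 gene moves these shares by 10 percentage points or more, and the order of the 4 was not tested. The IDR list held 4087 regions, and these were the 4087 entries of highest signal value among the 30000 candidates called on the pooled replicates. An IDR entry therefore means a pooled signal value, the peak caller's own measure of enrichment, of at least 88.4. Signal values are comparable within 1 list only.

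Subunit genes were often called and were not among the strongest regions as a group. Their 24 entries had a median signal value of 198.1 (quartiles 147.2 and 330.9, range 97.3 to 1125.9), against a median of 223.1 (quartiles 134.3 and 391.6) at the 3179 genes. Signal values above that all-gene median were found at 11 of the 24. The median was 198.4 in the lid, 236.9 in the base, 174.7 in the core beta ring and 175.8 in the core alpha ring. Values ran from 151.2 to 487.9 in the base, 141.2 to 435.9 in the beta ring and 125.9 to 402.3 in the alpha ring. In the lid they ran from 97.3 to 1125.9, so the ranges overlapped, with rpn-3 of the lid above all other members. Between replicates the SD of 1 log2 signal value at these members was 0.25.

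**Figure D1:**
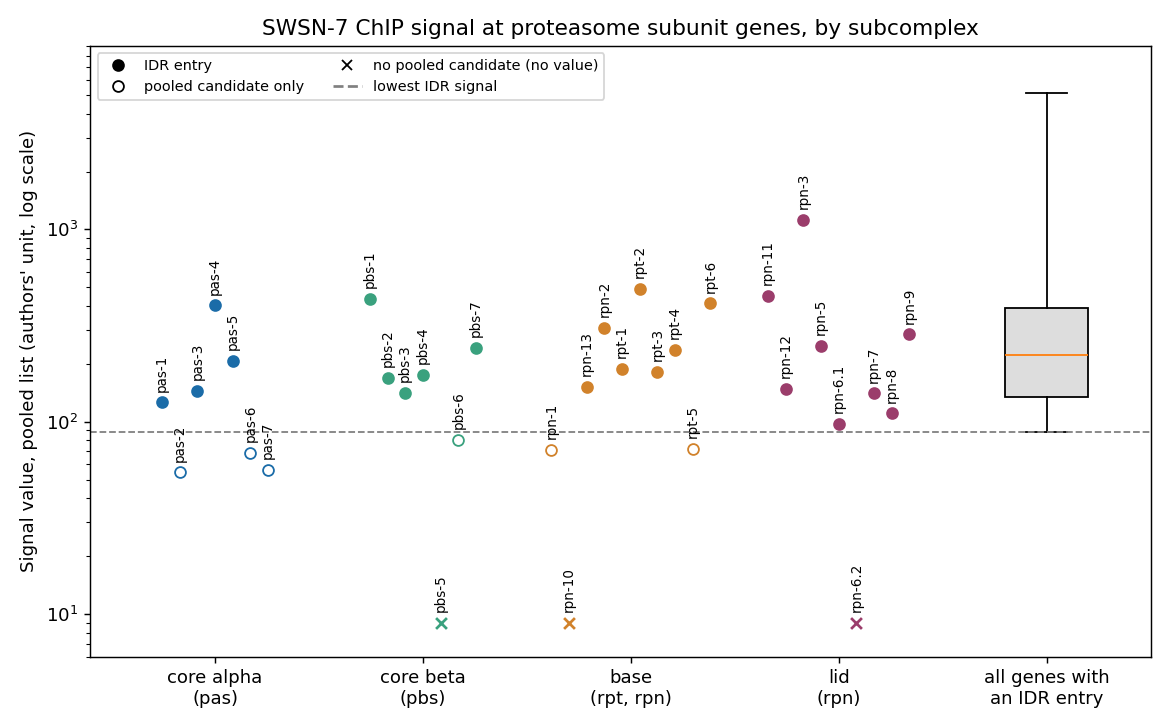
Signal value in the pooled list (log scale) for each of the 33 subunit genes, by subcomplex, beside all genes with an IDR entry (box from the lower to the upper quartile with the median, whiskers to the lowest and highest value). Filled points have an IDR entry, open points a pooled candidate below it, and crosses have no pooled candidate and are drawn at an arbitrary height; rpn-3 stands above all other members, and 6 members lie under the lowest IDR signal value of 88.4.

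Among the core alpha genes, which form the outer gated rings, pas-4 had the strongest region (chrI:8728509-8728759, build ce11), with signal values of 180.1 in replicate 1, 223.7 in replicate 2 and 402.3 in the pooled list. Its summit lay 148 bp upstream of pas-4 and 129 bp upstream of rpb-3, an RNA polymerase II subunit gene on the other strand that shares the intergenic stretch. The pas-5 region (chrI:10565212-10565611) had 106.5 in replicate 1, 104.7 in replicate 2 and 207.6 in the pooled list. It lay 938 bp upstream of pas-5, and a weaker region of 124.7 lay 322 bp upstream. The other 2 alpha genes with an entry, pas-3 (144.1) and pas-1 (125.9), had summits nearer to the 5′ end of another gene. The pas-3 summit was 6 bp upstream of use-1, and the pas-1 summit 210 bp upstream of rpoa-12, an RNA polymerase I subunit gene. Among protein-coding genes, pas-5 was thus the 1 alpha gene of 4 whose own 5′ end was nearest to its strongest region. Noncoding genes were left out of that comparison. The pas-5 summit lay in an exon of the snoRNA gene F25H2.15, and the pas-4 summit in an exon of the noncoding gene C36B1.16.

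The other 3 alpha genes had candidates below the threshold. The pas-6 candidate had signal values of 22.7 in replicate 1 and 40.0 in replicate 2, with 69.1 in the pooled list. The pas-7 candidate had 26.3 in replicate 1 and 32.3 in replicate 2, with 56.1 in the pooled list, and the pas-2 candidate 15.4 in replicate 1 and 29.0 in replicate 2, with 54.5 in the pooled list. All 3 summits lay 153 to 250 bp upstream of the gene, at nearly the same place in both replicates, and all 3 genes were below every alpha gene with an IDR entry in each replicate.

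Of the core beta genes, pbs-1 had the highest value, with 171.5 in replicate 1, 258.5 in replicate 2 and 435.9 in the pooled list. The pbs-1 region (chrIV:1709812-1710066) had its summit 198 bp upstream of pbs-1 and 322 bp upstream of the divergent gene K08D12.3. The next, pbs-7, had 104.2 in replicate 1, 130.1 in replicate 2 and 240.8 in the pooled list, 134 bp upstream of the gene. pbs-4 (174.7), pbs-2 (169.7) and pbs-3 (141.2) followed. The pbs-2 summit lay 341 bp upstream of pbs-2 and 325 bp upstream of eif-6, a translation factor gene transcribed the other way. These 3 lay within a narrow range of signal values, below pbs-1 and pbs-7 in the pooled list.

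2 beta genes had no entry. pbs-6 was the strongest member without one: its candidate had 29.0 in replicate 1, 48.8 in replicate 2 and 80.4 in the pooled list, against the lowest IDR value of 88.4. pbs-5, which encodes the beta subunit with chymotrypsin-like activity, had no pooled candidate in its window. The replicate lists held weak candidates of 11.2 in replicate 1 and 11 in replicate 2, and these lay on different sides of the 5′ end, 246 bp downstream in replicate 1 and 222 bp upstream in replicate 2. A region of 343.3 lay 1159 bp upstream of pbs-5, outside its window, and 281 bp upstream of the next gene on the same strand, K05C4.2.

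In the base, the 6 rpt genes encode the ATPases of the unfolding ring. rpt-2 had 215.6 in replicate 1, 269.3 in replicate 2 and 487.9 in the pooled list (chrV:6017680-6017935), 143 bp upstream of rpt-2 and 158 bp upstream of aps-1, a clathrin adaptor gene. rpt-6 had 210.9 in replicate 1, 232.3 in replicate 2 and 412.2 in the pooled list (chrIII:12369559-12369846), 746 bp upstream of rpt-6 and 660 bp upstream of his-72, a histone H3 variant gene. Both were above the pooled values of all other base genes, and rpt-6 had a second region of 245.5 at 236 bp upstream. rpt-4 (236.9), rpt-1 (188.6) and rpt-3 (182.1) also had entries. The rpt-4 summit lay in an intron of an rpt-4 transcript and 76 bp upstream of nfyc-1, a nuclear factor Y subunit gene. The rpt-3 summit lay 671 bp upstream, in an exon of chtb-2 outside its coding sequence. rpt-5 had no entry: its candidate, 521 bp upstream, had 42.3 in replicate 1, 30.6 in replicate 2 and 72.0 in the pooled list, and it was the 1 member without an entry whose value was clearly higher in replicate 1.

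Of the non-ATPase base genes, rpn-2 and rpn-1 encode the large scaffold subunits, and rpn-10 and rpn-13 the ubiquitin receptors. rpn-2 had 307.0 and rpn-13 151.2 in the pooled list, 357 and 308 bp upstream. rpn-1 had no entry, with 27.5 in replicate 1, 45.4 in replicate 2 and 71.4 in the pooled list, and its summit moved between replicates, with 566 bp upstream in replicate 1 and 389 bp upstream in replicate 2. rpn-10 had no candidate in its window in the pooled list or in either replicate's list. Of each pair of related roles, 1 gene thus had an entry and 1 did not.

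The lid held the strongest region of all members, at rpn-3, a scaffold subunit of the lid. It had signal values of 487.5 in replicate 1, 636.0 in replicate 2 and 1125.9 in the pooled list, with ranks of 86, 70 and 72 in those lists. The summit lay 205 bp upstream of rpn-3 and 239 bp upstream of hsp-110, which encodes a chaperone of the Hsp110 family and is transcribed away from rpn-3, so the region cannot be given to one of the 2 genes. The 200 bases around this summit are shown because they carry the highest value of the set (chrIII:8447048-8447247, ce11, plus strand, which is the rpn-3 strand). Capitals mark a heat shock element, the alternating triplets GAA, TTC and GAA with 2 bases between neighbours, which heat shock factor is known to bind and which was searched for after this sequence was seen. Its middle base lies 8 bp from the summit, on the hsp-110 side. Among the members' 24 windows of this length only this one holds the motif on either strand (4.17%). It was in 39 (1.53%) of the 2555 windows around all IDR regions whose summit lay in a gene's promoter window.
rpn-3: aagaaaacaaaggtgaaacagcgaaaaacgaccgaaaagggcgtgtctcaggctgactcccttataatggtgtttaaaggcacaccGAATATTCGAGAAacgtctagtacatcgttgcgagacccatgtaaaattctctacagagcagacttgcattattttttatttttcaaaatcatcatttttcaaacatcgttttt

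rpn-11, the deubiquitinase of the lid, had 194.1 in replicate 1, 252.3 in replicate 2 and 450.7 in the pooled list (chrII:4044420-4044675). Its summit lay 3 bp upstream of the annotated 5′ end, the closest of all members, and no other gene had that summit in its window. rpn-9 (284.5), rpn-5 (248.5), rpn-12 (148.3), rpn-7 (140.4) and rpn-8 (110.4), which encode further structural subunits, all had entries. The rpn-12 region was shared with the divergent gene rad-23, which encodes a shuttle factor that carries ubiquitinated proteins to the proteasome. The rpn-7 summit lay 36 bp upstream of F49C12.9 and 380 bp upstream of rpn-7.

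The 2 rpn-6 genes differed. rpn-6.1, whose raised expression is known to increase proteasome activity in C. elegans, had the lowest entry of the 24, with 26.0 in replicate 1, 73.4 in replicate 2 and 97.3 in the pooled list, in one of its own introns. Its log2 ratio of replicate 2 to replicate 1 was 1.49, the largest of the members, and it ranked 6163 in replicate 1. Its paralog rpn-6.2 had no candidate in its window in the pooled list or in either replicate's list.

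**Figure D2:**
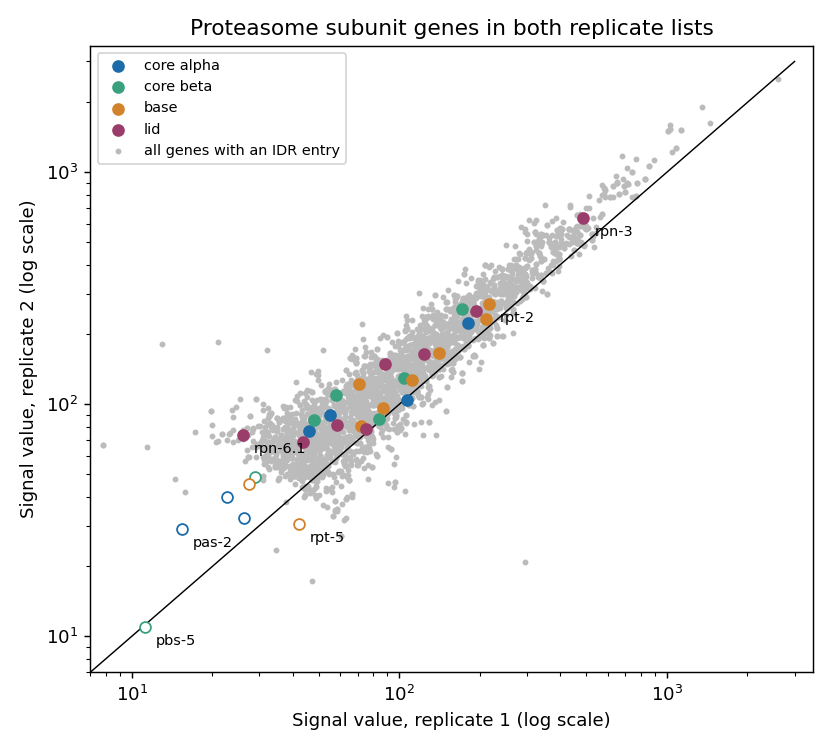
Signal value in replicate 1 (horizontal, log scale) and replicate 2 (vertical, log scale) of each subunit gene with a candidate in both lists, coloured by subcomplex, over the 3164 genes with an IDR entry and values in both lists (grey); open points have no IDR entry and the line marks equal values. The members run from pbs-5 at the lower left to rpn-3 at the upper right, with rpn-6.1 farthest above the line and rpt-5 below it.

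The replicates placed the members similarly. At 23 of the 24 genes with an entry the signal value was higher in replicate 2, with pas-5 as the exception, but by rank within each list 11 of the 24 stood higher in replicate 2. The log2 ratio of replicate 2 to replicate 1 had a median of 0.38 and an SD of 0.35 over these members, against a median of 0.41 and an SD of 0.43 over 3164 genes. The 4087 strongest entries of replicate 1 alone gave 24 of 33 members (15.6% of all genes), and those of replicate 2 alone also gave 24 (15.8% of all genes). Of the 33 members, 23 were called in both replicates and 8 in neither. Over all 19973 protein-coding genes, 2786 were called in both and 16486 in neither. Leaving replicate 2 out lost rpn-6.1 and gained rpt-5, and leaving replicate 1 out changed no member. For each gene the distance of the farther replicate summit from the pooled summit was taken. Its median was 13 bp over these members, against 12 bp over all genes, and the largest among members was 70 bp, at pas-1.

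The 9 members without an entry fell into 2 kinds. Candidates under the threshold were found at 6 of them, with pooled signal values of 54.5 to 80.4 and a median of 70.2. Of the 16794 genes without an entry, 5994 (35.7%) had a pooled candidate, with a median of 27.6, and 999 of those 5994 (16.7%) had 54.5 or more. Any pooled candidate was found at 30 of 33 members (90.9%), against 45.9% of all genes, and this took in all 7 alpha genes. The other 3, pbs-5, rpn-10 and rpn-6.2, had none. Each of these 3 starts a short way behind a gene on the same strand, 110 bp after K05C4.2 for pbs-5, 118 bp after mrpl-9 for rpn-10 and 54 bp after F59B2.15 for rpn-6.2. Among members with an entry, pbs-3 and pas-1 are spaced as closely, 22 bp after ulp-2 and 106 bp after rpoa-12 on the same strand. Such closely spaced genes can belong to operons in C. elegans, and whether these do was not examined.

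Subunit genes differed from genes at large in the spacing to their neighbours. A divergent neighbour whose 5′ end was within 1000 bp was found for 20 of 33 members (60.6%), against 17.2% of all genes. Of these 20 head-to-head members 14 had an entry, against 36.2% of all head-to-head genes. A same-strand gene ended within 500 bp upstream of 8 members (24.2%), against 17.7% of all genes, and 5 of the 8 had an entry, against 11.2% of all genes so placed. The 5 members of neither kind all had an entry, against 11.8% of such genes. All 7 head-to-head lid genes had entries, and all 6 members with a candidate under the threshold were head-to-head. Of the 7 lid entries, that of rpn-6.1 lay in an intron of rpn-6.1 and not between it and its divergent neighbour. Among all genes the head-to-head kind had the highest share with an entry, and among the members it did not. The part of gene spacing in the members' share was not tested.

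Many of the regions were shared with a neighbour. At 17 of the 24 members (70.8%) the same summit lay in the window of another protein-coding gene, against 50.0% of the 3179 genes. A member's own 5′ end was the nearest to its strongest region in 17 of 24 (70.8%), against 74.1% of all genes. Only the 5′ ends of protein-coding genes were compared. When each region was given only to the gene or genes of nearest 5′ end, 18 members kept one (11.9% of all genes), and pas-1, pas-3, pas-4, pbs-2, rpn-7 and rpt-4 were lost. The lid then had 7 of 9, the base 6 of 10, the beta ring 4 of 7 and the alpha ring 1 of 7. Genes that share a region are not independent observations.

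**Figure D3:**
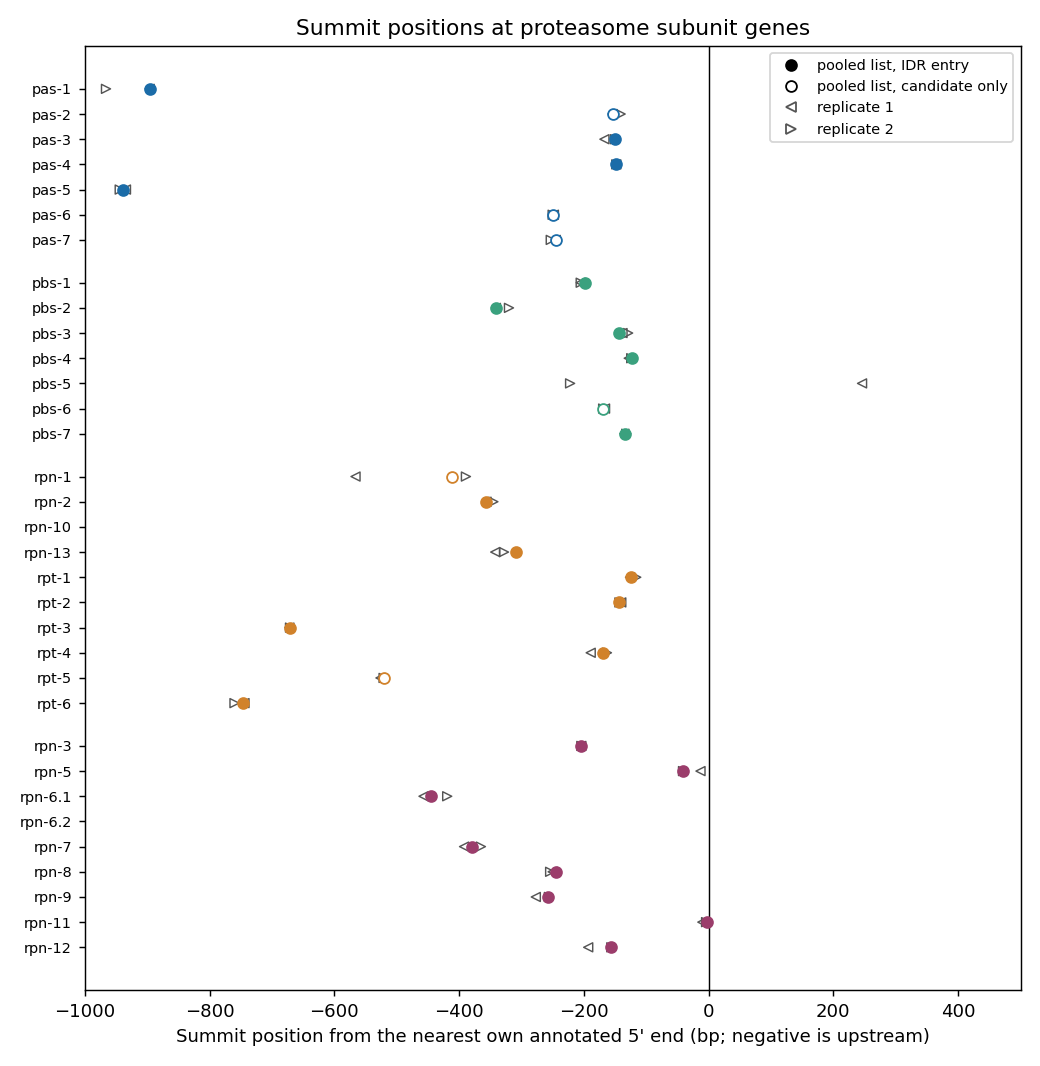
Position of the strongest summit from the nearest annotated 5′ end of the same gene (bp, negative is upstream) for the 33 subunit genes, in the pooled list (filled, IDR entry; open, candidate only) and in each replicate (triangles). All pooled summits lie upstream of that nearest 5′ end, which is internal to the gene at rpn-6.1 and rpt-4. Replicate 1 and replicate 2 fall on nearly the same position except at pbs-5, rpn-1 and a few others.

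Every one of the 24 summits lay upstream of its gene's nearest annotated 5′ end, from 938 to 3 bp away, with a median position of −201.5 bp. At rpn-6.1 and rpt-4 that was an internal 5′ end, and the summit lay in an intron of the gene. Over all genes the median was −226 bp and 94.0% lay upstream. The median was −143 bp in the beta ring, −225 bp in the lid, −308 bp in the base and −523 bp in the alpha ring, which rests on 4 genes. Many C. elegans transcripts are trans-spliced, so an annotated 5′ end can lie downstream of the true start, and these distances can be overstated. Of the 24 summits, 17 lay in no annotated gene, 4 in a protein-coding gene and 3 only in a noncoding gene. The 3 were those of pas-4, pas-5 and rpt-2, and the gene was a snoRNA gene at pas-5. The same was not counted over all regions, so whether these numbers are usual for the list is not known. Regions were 100 to 400 bp wide (median 253 bp, against 279 bp over all genes).

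**Figure D4:**
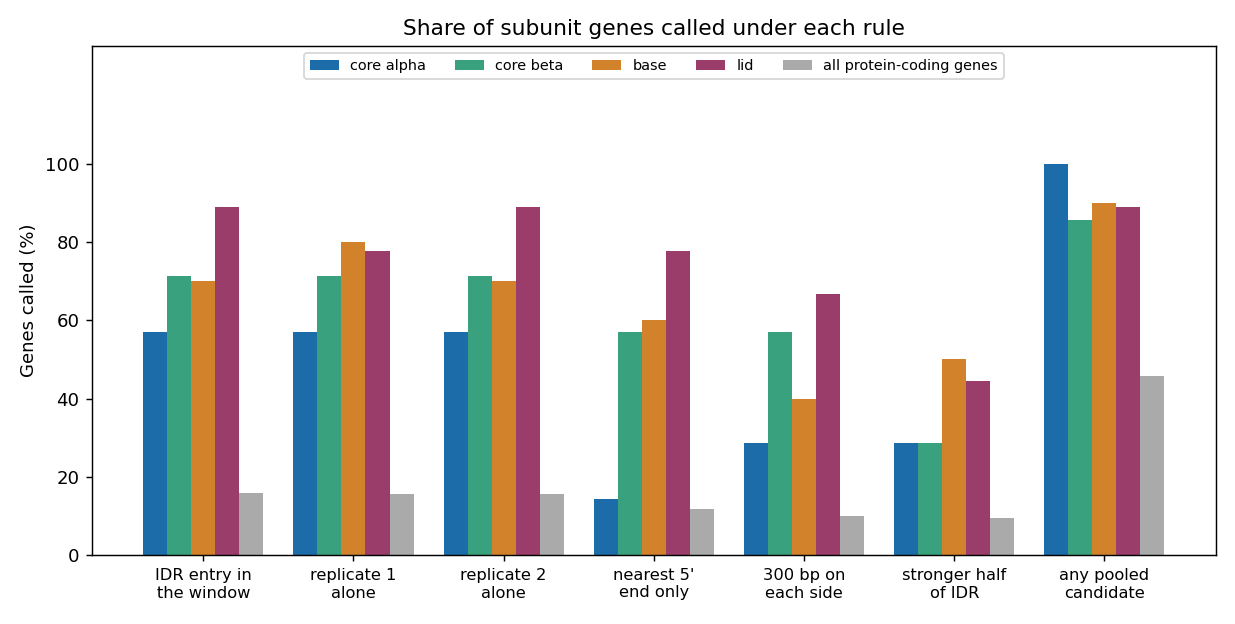
Share of genes called (%) in each subcomplex and among all 19973 protein-coding genes (grey) under 7 rules for calling a gene, from the rule used throughout at the left to any pooled candidate at the right. The alpha ring changes most, from 14.3% by nearest 5′ end to 100% by any pooled candidate, while the lid stays at 44.4% or more under each rule.

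How close a region had to be changed the counts more than the replicate used. A window of 300 bp on each side gave 16 members (10.1% of all genes), with 6 lid, 4 base, 4 beta and 2 alpha genes. A window reaching 2000 bp upstream gave 26 (20% of all genes) and added pbs-5 and rpn-10 through regions nearer to the gene before them. Any overlap of a region with the window gave 24 (16.7% of all genes). The 5′ end of the longest transcript alone gave 22 (15.0% of all genes), losing rpn-6.1 and rpt-4. The 2043 strongest regions gave 13 members (9.56% of all genes), of which 5 were base and 4 lid genes. The 5112 strongest pooled entries, a number taken after seeing the data from the IDR list of build ce10, gave 27 (18.3% of all genes) and added pbs-6, rpn-1 and rpt-5.

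The sequence under the regions was searched for 10 short motifs on both strands, in windows of 200 bases centred on each member's strongest summit. The 2555 comparison windows lay around all IDR regions with a summit in a gene's promoter window, including a gene's weaker regions. The windows of the 24 members had a median GC content of 35.8% (range 29.5 to 46.0%). Over the 2555 windows it was 42.0%, and 20 of the 24 were below that median. TGTCAT, a core form of the site bound by SKN-1, was present in 8 of 24 member windows (33.3%), against 210 of 2555 (8.22%). The 8 were pbs-1 in the core, rpn-2, rpt-2 and rpt-4 in the base, and rpn-6.1, rpn-7, rpn-11 and rpn-12 in the lid. No core alpha window held it. The other SKN-1 core form, TATCAT, was in 1 member window, that of rpn-8, against 6.46%. The motif of yeast Rpn4, GGTGGCAAA, which controls proteasome genes in Saccharomyces cerevisiae, was in 0 of 24, against 0.235%. Of the remaining motifs, CCAAT was in 5 windows (28.9% of all windows), TTTCAG in 4 (19%), ACGTG in 3 (24.3%), GCGCGAAA in 1 (3.29%), and TGATAA (9.2%), GTAAACA (4.07%) and GAGAGAGA (9.86%) in none. A match describes the letters and does not show that a factor is bound there.

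The 8 windows with TGTCAT are shown around the match, 12 bases on each side and read on the strand where the match runs forward, because their flanks resemble each other. All positions are ce11 and capitals mark TGTCAT. The matches were at chrIV:1709873-1709902 (pbs-1, plus strand), chrIII:6198864-6198893 (rpn-2, minus), chrV:6017773-6017802 (rpt-2, minus), chrII:43775-43804 (rpt-4, plus), chrIII:6961307-6961336 (rpn-6.1, minus), chrIV:9316254-9316283 (rpn-7, plus), chrII:4044503-4044532 (rpn-11, minus) and chrII:11652978-11653007 (rpn-12, plus).
pbs-1: cagaaaaaacatTGTCATcaaatctcaatg
rpn-2: tgtggtcagaatTGTCATcctccgcgatgt
rpt-2: gcgcgcttgcatTGTCATcatcaacgctgt
rpt-4: cagaattgaaatTGTCATcgtgtccaacag
rpn-6.1: gctggcgggaatTGTCATcgtcattgtctt
rpn-7: attgcaaaccctTGTCATcatccccgccca
rpn-11: gtaccccgcaatTGTCATcctcacaatttt
rpn-12: acctgccagaatTGTCATtgtgtcgattta

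In 7 of these 8 the letters before the match were AT, which gives ATTGTCAT, and rpn-7 was the exception. ATTGTCAT was in 7 of 24 member windows (29.2%), against 30 of 2555 (1.17%), so 7 of the 30 windows belong to subunit genes. This longer form was chosen after the members' sequences were seen, and its share supports nothing beyond them. In all 8 the match lay on the subunit gene's side of the summit. The distance was 18 bp at rpn-7, 24 bp at rpt-2, 26 bp at rpn-12 and 31 bp at rpn-11. It was 41 bp at rpt-4, 52 bp at rpn-2, 55 bp at pbs-1 and 63 bp at rpn-6.1. Except at rpn-11, another protein-coding gene had the same summit in its window. The side was not counted for the other windows that held TGTCAT. The match read forward on the subunit gene's strand in 5 and on the other strand in pbs-1, rpn-2 and rpt-4. Windows of 100 bases held TGTCAT at 5 members (20.8%), against 3.91% of all.

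The placement at the base and lid can be read in 2 full windows, those of rpt-2 and rpn-11, the members of highest signal value that hold TGTCAT. Both are given on the gene strand with the summit at the centre and TGTCAT in capitals (rpt-2, chrV:6017712-6017911, minus strand; rpn-11, chrII:4044449-4044648, minus strand).
rpt-2: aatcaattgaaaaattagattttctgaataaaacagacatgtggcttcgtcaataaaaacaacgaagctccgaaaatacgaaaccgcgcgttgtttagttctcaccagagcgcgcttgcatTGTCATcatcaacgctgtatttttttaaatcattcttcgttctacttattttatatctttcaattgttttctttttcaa
rpn-11: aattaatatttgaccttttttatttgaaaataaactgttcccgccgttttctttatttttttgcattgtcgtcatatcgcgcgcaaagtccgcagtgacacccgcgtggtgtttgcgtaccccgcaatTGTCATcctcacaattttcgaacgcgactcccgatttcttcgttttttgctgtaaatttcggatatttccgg

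Windows that do not depend on a region gave a smaller difference. In the 500 bases upstream of each gene's most upstream 5′ end, a window added after seeing the data, TGTCAT was present at 11 of 33 subunit genes (33.3%), against 22.9% of all genes and 20% of the genes with an entry. ATTGTCAT was there at 6 of 33 (18.2%), namely pas-2, pbs-1, rpn-1, rpn-2, rpn-12 and rpt-2, against 3.19% of all genes and 3.4% of those with an entry. Around the pooled summits of the 6 members with a candidate under the threshold, TGTCAT was in 2, pas-2 and pas-6, and ATTGTCAT in pas-2. The shares in the 2555 windows around IDR regions were 8.22% and 1.17%.

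Genes that work with the proteasome were looked up as a list of 24. An entry was found at 13 of the 24 (54.2%), against 15.9% of all genes, with a median signal value of 235.3. The strongest was cdc-48.1, an ATPase that extracts ubiquitinated proteins, with 1023.7 in replicate 1, 1602.3 in replicate 2 and 2608.4 in the pooled list, above every subunit gene. ubql-1, a ubiquilin shuttle factor, had 717.9, ubq-2, a ubiquitin fusion gene, 650.9, and ufd-3, a cofactor of CDC-48, 593.8. skn-1 itself had a region of 131.4, which lay inside the gene, 547 bp upstream of an internal annotated 5′ end. The paralog cdc-48.2 had a pooled candidate of 67.9, uba-1, the ubiquitin-activating enzyme, one of 58.3 and ufd-1 one of 22.1, all without an entry. No pooled candidate was found at ddi-1 and png-1, whose products process SKN-1 during its activation, nor at dss-1, ecps-2, hecd-1, npl-4.1, npl-4.2 and psmd-9. TGTCAT was in 7 of the 13 windows, those of aip-1, cdc-48.1, ecps-1, rad-23, skn-1, ufd-3 and usp-14, against 8.22% of the 2555 windows. ATTGTCAT was in 2, cdc-48.1 and rad-23, against 1.17%. The rad-23 window, in both counts, is that of rpn-12 and was already counted among the members.

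The 8 genes of the CCT chaperonin, another large complex of many subunits, were set beside the proteasome. An entry was found at 24 of 33 subunit genes with a median signal value of 198.1, against 6 of 8 CCT genes (75%) with a median of 381.8. The share over all protein-coding genes was 15.9%. By the nearest 5′ end only, 1 of 8 CCT genes (12.5%) and 18 of 33 subunit genes kept a region, against 11.9% of all genes. All 6 CCT regions were shared with another gene, and 1 of the 6 windows held TGTCAT, that of cct-8, against 8.22% of the 2555 windows.

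By chromosome, entries were found at 7 of the 10 members on chromosome I, against 627 of all 2878 protein-coding genes there. Chromosome II had 6 of 7 members, against 514 of 3449 genes, and chromosome III 6 of 8 members, against 620 of 2640 genes. Chromosome IV had 2 of 3 members, against 507 of 3281 genes, and chromosome V 3 of 5 members, against 513 of 4994 genes. None of the 2731 protein-coding genes of the X chromosome is a subunit gene.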

How the data were processed

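ChIP-seq regions of tagged SWSN-7 in 2 biological replicates of L1 larvae were analysed from the authors' deposited lists in build ce11, which is the WBcel235 assembly. Per the deposited readme, the authors mapped the reads and called candidates in each replicate and in both pooled, and kept the regions that passed IDR. Which aligner and which peak caller made them is not given in the sources used. The deposited lists give a signal value and a −log10 q-value for each region. The authors' −log10 q-values shared a ceiling of 4.09 over the IDR list, so the deposited signal value was used for ranking. Each candidate list held 30000 entries. No region had the same position and signal value in both replicates.

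Genes and 5′ ends came from Ensembl release 115 and sequence from the RefSeq genome of the same build. Each gene took the strongest summit found up to 1000 bp upstream or 500 bp downstream of any annotated 5′ end of its own. Coordinates are 1-based. Python 3.11.15, numpy 2.4.6, pandas 2.3.3 and matplotlib 3.10.9 were used. The assignment of entries to genes was tested on 200 simulated entries placed at known distances inside and outside the window, and 0 were assigned wrongly.

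The members and lists were chosen with earlier results of these data known. Every member is named, with values in each replicate for the 2 highest of each subcomplex and for those without an entry. Of the associated genes, the 4 highest and those without an entry are named, with the pooled value where there was one. Replicate values are given for cdc-48.1 only among them. Other associated and neighbouring genes were named after their values were seen. Alternatives were other windows, the nearest 5′ end only, any overlap (1 bp), the longest transcript, the 2043 strongest regions and each replicate alone. The 5112 strongest pooled entries, the motifs ATTGTCAT and GTCAT, the heat shock element, the fixed upstream window and a scan of words were added after seeing the data.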

Additional observations from a re-analysis of the deposited data

How the results depend on the processing

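The number of subunit genes with an entry stayed between 16 and 27 of 33 under the alternatives tried except the 2043 strongest regions, which left 13. Any pooled candidate, counted in the report, gave 30. Those regions left 2 core alpha, 2 core beta and 4 lid genes. The window of 300 bp on each side left 2 core alpha, 4 base and 7 associated genes, and the nearest 5′ end alone left 1 core alpha gene. The median signal value of members with an entry, 198.1, was 243.2 with the 300 bp window and 307.0 over the 2043 strongest regions, both of which keep fewer members. The log2 ratio of replicate 2 to replicate 1, 0.38 from signal values, was −0.05 from ranks, which take out the lists' own scales. By rank 11 members stood higher in replicate 2, so ranks showed no clear direction. Windows of 100 bases in place of 200 lowered TGTCAT from 8 to 5 members and ACGTG from 3 to 1. Leaving out either replicate gave 24 members. No paired analysis was possible because the series has 1 group and no contrast. The depth behind each region is unknown, and the candidate lists end at 30000 entries, so a gene without a candidate may still hold weaker signal.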

Other observations

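A scan of all 2080 words of 6 letters, each taken with its reverse complement, was made over the members' 200 base windows, ordered by the ratio of their share at members to that at all 2555 windows, with 24 added to each word's number of windows and to the 2555 so that rare words did not lead. The first word in this order was GTCATC, present at 12 of 24 members (50%), against 6.5% of all windows. It was at pas-3, pas-5, pbs-1, pbs-2, pbs-7, rpn-2, rpn-6.1, rpn-7, rpn-11, rpn-13, rpt-2 and rpt-4, so it took in core alpha and core beta genes that lacked TGTCAT. Over the 8192 words of 7 letters the first in the same order was AAGTCAT, at pas-3, pas-5, pbs-2, pbs-7 and rpn-13 (20.8%), against 1.21%. None of these 5 windows held TGTCAT. The shorter word GTCAT, contained in both and in TGTCAT, was at 14 of 24 members (58.3%), against 23.3%. These words were picked for their shares in these windows, so the shares are descriptions and carry no test. Among the 24 members rpn-3, the gene with the highest signal value, held none of them.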
